A study of Mus musculus with 16 samples.

Results

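The 10 genes described here are core transcription factors of blood stem cells: Gata2, Tal1, Lmo2, Runx1, Erg, Fli1, Gfi1b, Meis1, Hlf and Mecom. They were chosen by name, as the rows of the gene table that carry these symbols, and all 10 were present among the 14829 genes of the table. RNA was sequenced from hematopoietic stem cells of the mouse bone marrow, labelled as such and sorted straight after the marrow had been kept at 37 °C for 1 h with either dmPGE2, a stabilised dimethyl form of prostaglandin E2, or vehicle. The 4 groups were old mice with dmPGE2, old mice with vehicle, young mice with dmPGE2 and young mice with vehicle, each of 4 libraries. The 8 mice gave 1 library of each treatment, so dmPGE2 and vehicle are paired within a mouse, whereas old and young mice are different animals. Ages are given as old and young alone, and neither strain, sex, sorting markers nor dmPGE2 dose is given in the sources used here. The libraries carry 2 consecutive dates, called date 1 and date 2, with 2 old and 2 young mice on each. The step done on those dates is not given in the sources used here.

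These factors keep blood stem cells multipotent and decide between self-renewal and the blood lineages. GATA2, a zinc finger protein, binds DNA beside TAL1, a basic helix-loop-helix protein that pairs with E proteins, and LMO2 joins them without touching DNA itself. RUNX1 and the ETS proteins ERG and FLI1 occupy many of the same enhancers in mouse blood progenitors. GFI1B is a zinc finger repressor that recruits the demethylase LSD1 with its CoREST partner. MEIS1 is a homeobox protein that works with PBX and HOX proteins, HLF is a leucine zipper protein of the PAR group, and MECOM is a zinc finger protein on which long-term stem cell maintenance depends.

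The genes lie on build mm10 as counted, Gata2 on the plus strand at chr6:88198664-88207032, Tal1 on the plus strand at chr4:115056426-115071755, Lmo2 on the plus strand at chr2:103957995-103981878, Runx1 on the minus strand at chr16:92601466-92826074, Erg on the minus strand at chr16:95359169-95586593, Fli1 on the minus strand at chr9:32422204-32541452, Gfi1b on the minus strand at chr2:28609450-28621982, Meis1 on the minus strand at chr11:18880428-19018969, Hlf on the minus strand at chr11:90336535-90390917 and Mecom on the minus strand at chr3:29951296-30509487. The counted exons of none of them overlapped those of another counted gene. RefSeq's promoter table for GRCm38.p6, the same assembly, holds 8 of the 10 with 14 starts, each as 250 bases before and 50 after the start. It has no entry for Lmo2 or Fli1. Of the 14 starts 12 lie in counted exons. Of the windows 6 are shown, each at a start in a counted exon. They cover the 3 members called with dmPGE2 on date 1 (Gata2, Runx1 at both starts, Gfi1b) and Mecom, with the largest age difference in vehicle. The last is that of Hlf, a factor largely confined to stem cells within the blood system. The windows shown run chr6:88198414-88198713 (plus strand) for Gata2, chr3:30013155-30013454 (minus strand) for Mecom, chr16:92826025-92826324 (minus strand) for the distal and chr16:92697280-92697579 (minus strand) for the proximal start of Runx1, chr2:28621933-28622232 (minus strand) for Gfi1b and chr11:90390868-90391167 (minus strand) for Hlf. Capitals mark matches, on either strand, to the motifs of the factors themselves and of the cAMP response that prostaglandin E2 receptors feed.
Gata2: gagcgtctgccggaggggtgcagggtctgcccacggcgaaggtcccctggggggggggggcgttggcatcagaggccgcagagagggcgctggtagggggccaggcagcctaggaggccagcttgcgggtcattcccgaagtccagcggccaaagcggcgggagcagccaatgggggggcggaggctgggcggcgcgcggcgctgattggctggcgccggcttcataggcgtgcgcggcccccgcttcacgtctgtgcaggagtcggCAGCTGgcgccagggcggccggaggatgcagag
Mecom: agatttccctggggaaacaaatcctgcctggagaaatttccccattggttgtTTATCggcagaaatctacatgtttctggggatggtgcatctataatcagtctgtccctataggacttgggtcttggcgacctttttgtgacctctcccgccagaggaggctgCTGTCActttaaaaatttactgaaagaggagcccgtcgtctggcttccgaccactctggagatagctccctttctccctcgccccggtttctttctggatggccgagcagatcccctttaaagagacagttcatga
Runx1 distal: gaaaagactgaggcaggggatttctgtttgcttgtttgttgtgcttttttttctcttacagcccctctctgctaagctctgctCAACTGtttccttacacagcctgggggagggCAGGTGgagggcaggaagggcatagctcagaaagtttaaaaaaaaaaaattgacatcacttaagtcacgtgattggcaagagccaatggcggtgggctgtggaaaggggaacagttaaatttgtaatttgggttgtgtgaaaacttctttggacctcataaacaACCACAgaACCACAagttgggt
Runx1 proximal: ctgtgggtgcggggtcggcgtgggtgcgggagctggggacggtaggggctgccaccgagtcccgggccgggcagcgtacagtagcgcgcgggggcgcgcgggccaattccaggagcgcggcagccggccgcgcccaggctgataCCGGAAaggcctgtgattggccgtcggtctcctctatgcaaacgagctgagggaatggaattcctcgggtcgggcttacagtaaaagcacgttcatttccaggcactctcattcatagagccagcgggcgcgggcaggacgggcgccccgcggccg
Gfi1b: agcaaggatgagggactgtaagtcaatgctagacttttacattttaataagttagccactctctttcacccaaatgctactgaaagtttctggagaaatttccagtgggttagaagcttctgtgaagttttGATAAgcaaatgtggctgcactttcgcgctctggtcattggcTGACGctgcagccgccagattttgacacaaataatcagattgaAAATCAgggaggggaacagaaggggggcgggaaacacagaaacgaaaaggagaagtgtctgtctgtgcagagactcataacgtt
Hlf: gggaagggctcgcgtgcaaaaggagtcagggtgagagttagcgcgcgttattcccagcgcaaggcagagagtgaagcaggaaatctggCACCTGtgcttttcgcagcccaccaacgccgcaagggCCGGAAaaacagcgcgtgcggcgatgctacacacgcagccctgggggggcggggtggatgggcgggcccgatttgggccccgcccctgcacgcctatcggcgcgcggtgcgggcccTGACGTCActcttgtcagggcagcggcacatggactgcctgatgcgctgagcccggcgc

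The motifs searched were GATAA (GATA, present in 25.4% of the 32851 promoters of the table), CAGNTG (E-box of TAL1 and E proteins, 51.4%), TGTGGT (RUNX, 16.8%), CCGGAA (ETS, 14.9%), AAATCA (GFI1, 14.0%), TGACAG (MEIS, 19.2%), TTANGTAA (PAR group, 2.32%), TGACGTCA (cAMP response element, 1.79%) and TGACG (the first part of that element, 20.8%, which lies within it). In the windows shown, Gata2 holds an E-box, Mecom a GATA and a MEIS match, and the distal Runx1 start a pair of E-boxes and a pair of RUNX matches. The proximal Runx1 start holds an ETS match. The Gfi1b window holds a GATA and a GFI1 match with 1 TGACG, and the Hlf window an E-box, an ETS match and the full cAMP response element. A match describes letters in the window and not a bound site.

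Library totals ran from 12960704 to 19226963 counts, and the members were well covered, from 554 counts in the lowest library of Erg to 23748 in the highest of Lmo2. All 10 stem cell markers examined were in the table, and none was at 0 in any group. Their summed level was 2442 to 3764 CPM (counts scaled to library size and composition) on date 2 and 3631 to 4853 CPM on date 1. The dates differed strongly in genes of other blood cells. The 6 neutrophil genes summed to 679 to 1328 CPM on date 2 and 3.44 to 8.19 CPM on date 1. The 5 myeloid progenitor genes summed to 1389 to 3209.5 CPM on date 2 and 118 to 303 CPM on date 1. The mast cell and basophil genes, 7 of 8 in the table, summed to 523 to 4344 CPM on date 2 and 8.51 to 19.2 CPM on date 1. In bulk RNA a change in the share of cells that express a gene and a change in RNA per cell cannot be told apart.

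Per base of exon the members spanned a wide range of expression. Divided by exon length (RPKM, CPM per kilobase of exon, in the 8 vehicle libraries), Lmo2 stood highest at 552 ± 97.7 RPKM (SD over 8 mice, as for all values here), with only 69 genes of the table above it. Gata2 followed at 197 ± 36.8 RPKM, Meis1 at 148 ± 20.1 RPKM, Gfi1b at 102 ± 22.8 RPKM, Fli1 at 91.4 ± 11.8 RPKM and Hlf at 79.1 ± 14.3 RPKM. The lower members were Mecom at 33.9 ± 9.33 RPKM, Runx1 at 25.4 ± 4.45 RPKM, Tal1 at 17.0 ± 2.12 RPKM and Erg at 15.0 ± 3.02 RPKM. The ranges of neighbours in this order were apart only between Lmo2 and Gata2 and between Hlf and Mecom. Within a mouse, Gata2 exceeded Meis1, Meis1 exceeded Gfi1b and Runx1 exceeded Tal1 in 8 of 8 mice. Gfi1b exceeded Fli1 in 6 of 8 mice, Fli1 exceeded Hlf in 7, Mecom exceeded Runx1 in 6 and Tal1 exceeded Erg in 5, so these neighbours were not separated beyond their spread. The last pair split by age, since Tal1 exceeded Erg in 1 of 4 old mice and in 4 of 4 young mice. In old vehicle libraries Erg averaged 17.1 RPKM and Tal1 16.8 RPKM, while in young vehicle libraries Erg averaged 12.8 RPKM and Tal1 17.3 RPKM. By the mean of the 8 vehicle libraries Erg, the lowest of the members, stood above 59.8% of the genes of the table.

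**Figure D1:**
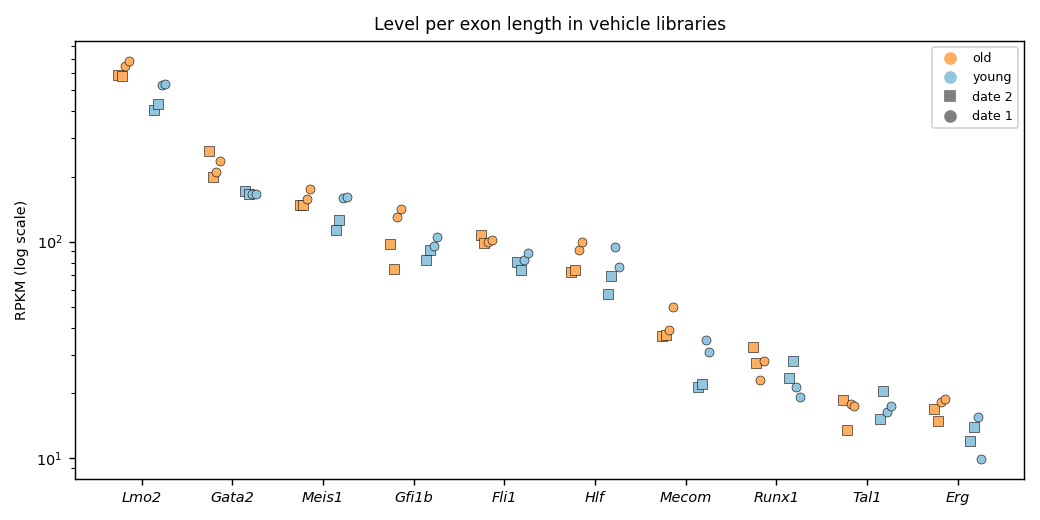
Level per exon length (RPKM, log axis) of each member in the 8 vehicle libraries, ordered by mean, with old mice left of young mice and dates by symbol. Lmo2 stands apart at the top with a mean of 552 RPKM, and Tal1 and Erg share the bottom with means of 17.0 and 15.0 RPKM.

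Several members were higher in old than in young mice. In vehicle libraries 4 of the 10, Mecom, Gata2, Lmo2 and Fli1, were higher in old mice and none was lower, where 8.47% of the 13369 genes tested were called higher and 17.3% were called in either direction. Calls are those of edgeR's quasi-likelihood test with a term for date, at a Benjamini-Hochberg adjusted p under 0.05. In dmPGE2 libraries of the same mice 3 members, Gata2, Lmo2 and Fli1, were higher and none was lower, beside 7.85% of 13279 genes called higher and 14.3% called in either direction. In the vehicle libraries 9 of 10 log2 fold changes were above 0, with a median of 0.28 over the members and -0.00 over all genes tested. In the dmPGE2 libraries 10 of 10 were above 0, again with a median of 0.28. Since the same mice gave both sets of libraries, the dmPGE2 values are no independent repeat.

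**Figure D2:**
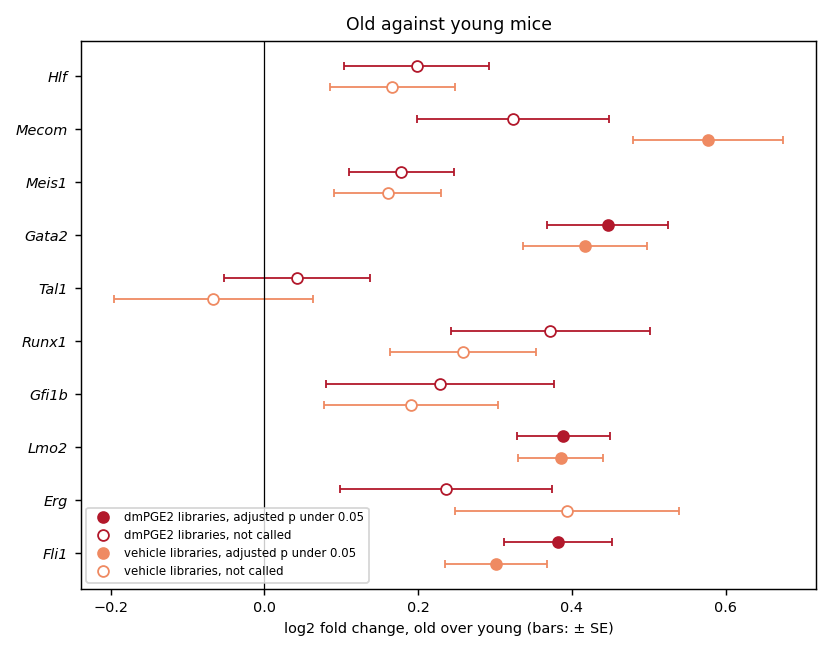
Log2 fold change of old over young mice, with its standard error, for each member in dmPGE2 and vehicle libraries. Filled points passed the adjusted p threshold: Mecom in vehicle, and in both Gata2, Lmo2 and Fli1. Tal1 lies at 0 within its error in both.

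The 4 libraries of a group are listed below with the date 2 pair before the date 1 pair. Gata2, the zinc finger factor needed for stem cell survival, had 850.0, 648, 680.1 and 766 CPM in old vehicle libraries, against 556, 536, 541 and 539 CPM in young vehicle libraries. With dmPGE2 it had 812, 653, 864 and 874 CPM in old libraries, against 609, 543, 582 and 594 CPM in young libraries. Every old library lay above every young one, and the young libraries sat close together while the old ones were spread out. The log2 fold change of old over young was 0.42 ± 0.08 in vehicle (SE, adjusted p = 0.00545, a 1.34-fold difference) and 0.45 ± 0.08 in dmPGE2 (adjusted p = 0.00396). Among the date 2 mice the old mouse with the higher Gata2, mouse 485, also had more mast cell and basophil RNA than mouse 486, at 3220.0 and 523 CPM in vehicle. Young mouse 483, at 4344 CPM of those genes, had 556 CPM of Gata2, against 541 and 539 CPM in the date 1 young mice, which had 17.9 and 10.4 CPM of them. Beyond these values the part of those cells in the result was not tested.

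Lmo2, the bridge of the GATA2 and TAL1 complex, had 1124, 1109, 1239 and 1305 CPM in old vehicle libraries, against 769.7, 826, 1011 and 1014 CPM in young vehicle libraries. With dmPGE2 it had 1075, 1159, 1209.6 and 1314 CPM in old libraries, against 808, 804, 1037 and 977 CPM in young libraries. The ages did not overlap in either treatment, and on each date the old pair lay above the young pair. The log2 fold change was 0.39 ± 0.06 in vehicle (adjusted p = 0.00097) and 0.39 ± 0.06 in dmPGE2 (adjusted p = 0.00187), with the smallest standard error of the members in both. Tal1, the helix-loop-helix member of the same complex, showed no such pattern. It ran from 57.5 to 78.8 CPM in old vehicle libraries, against 64.7 to 87.4 CPM in young vehicle libraries. Its log2 fold change was -0.07 ± 0.13 (adjusted p = 0.77) in vehicle and 0.04 ± 0.09 (adjusted p = 0.818) in dmPGE2.

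Fli1, an ETS factor of stem cells and megakaryocytes, had 339, 312, 314 and 324 CPM in old vehicle libraries, against 255, 235, 261 and 281 CPM in young vehicle libraries. With dmPGE2 it had 326, 285, 309 and 305 CPM in old libraries, against 209, 228, 254 and 245 CPM in young libraries. Old libraries were above young libraries throughout. The log2 fold change was 0.30 ± 0.07 in vehicle (adjusted p = 0.0104) and 0.38 ± 0.07 in dmPGE2 (adjusted p = 0.00487). Erg, its close relative, had 58.4, 51.1, 62.9 and 64.9 CPM in old vehicle libraries, against 41.5, 47.9, 53.8 and 34.3 CPM in young vehicle libraries. The groups of Erg overlapped by a single young library, mouse 477 at 53.8 CPM. Its log2 fold change of 0.39 ± 0.15 was larger than that of Fli1 but less precise (adjusted p = 0.0887). Without mouse 477 it was 0.52 with an adjusted p of 0.049, and with any other mouse left out it did not pass. In dmPGE2 libraries Erg gave 0.24 ± 0.14 (adjusted p = 0.3).

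Mecom, the zinc finger factor of long-term stem cells, had 202, 203, 215 and 274 CPM in old vehicle libraries, against 117, 121, 192 and 169.8 CPM in young vehicle libraries. All old libraries were above all young ones, and the young date 2 libraries were the lowest. The log2 fold change was 0.58 ± 0.10 (adjusted p = 0.00255), the largest of the 10 in vehicle. With dmPGE2 the old libraries had 195, 207, 211 and 291 CPM, against 156, 121, 236 and 223 CPM in young libraries. Here the ages overlapped through the young date 1 libraries, and the log2 fold change of 0.32 ± 0.12 did not pass (adjusted p = 0.116). Without mouse 479 it was 0.45 and passed (adjusted p = 0.0186), while with any other mouse left out it did not pass. The difference between the treatments is the age by dmPGE2 term given with the dmPGE2 response, and it did not pass.

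The other members did not pass with age. Runx1 averaged 205 ± 29.1 CPM in old and 169.5 ± 28.9 CPM in young vehicle libraries (SD, n = 4 each), a log2 fold change of 0.26 ± 0.09 (adjusted p = 0.0873). In dmPGE2 libraries it averaged 242 ± 49.7 CPM in old and 186 ± 9.22 CPM in young mice, a log2 fold change of 0.37 ± 0.13 (adjusted p = 0.0848). Old mouse 486 was the lowest of all dmPGE2 libraries, and without it the dmPGE2 value was 0.52 (adjusted p = 0.00164). Without young mouse 484 the vehicle value was 0.33 (adjusted p = 0.0438). In each treatment Runx1 passed with no other mouse left out. DESeq2 called Runx1 in vehicle (adjusted p = 0.0497) and in dmPGE2 (adjusted p = 0.0346). Gfi1b, the repressor of erythroid and megakaryocyte cells, averaged 202 ± 55.6 CPM in old and 170.5 ± 17.2 CPM in young vehicle libraries (adjusted p = 0.284). Mouse 486 was the lowest old library in both treatments, and without it Gfi1b gave 0.31 in vehicle (adjusted p = 0.0438) and 0.40 in dmPGE2 (adjusted p = 0.0148). With any other mouse left out Gfi1b passed in neither treatment. Hlf, at 0.17 ± 0.08 in vehicle and 0.20 ± 0.09 in dmPGE2, and Meis1, at 0.16 ± 0.07 and 0.18 ± 0.07, had small log2 fold changes that did not pass (lowest adjusted p = 0.114).

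Counted by overlap alone, 4 members in vehicle had all 4 old mice above all 4 young mice, beside 9.56% of the genes tested, and 3 did in dmPGE2, beside 8.79%. On date 2 alone, from a fit with an age term for each date, Mecom (0.74, adjusted p = 0.00862), Lmo2 (0.46, adjusted p = 0.00816) and Fli1 (0.39, adjusted p = 0.0319) passed in vehicle, where 7.91% of genes were called and 4.67% were higher. On date 1 alone Lmo2 passed (0.31, adjusted p = 0.0384), beside 6.47% of genes called and 3.52% higher. Gata2 had nearly the same value on date 2 (0.43, adjusted p = 0.0582) as on date 1 (0.40, adjusted p = 0.0813), without passing on 2 mice against 2. In dmPGE2 libraries Meis1 (0.32), Lmo2 (0.47) and Fli1 (0.48) passed on date 2, where 8.26% of genes were called and 5.02% were higher. Gata2 (0.55) passed on date 1, where 5.83% were called and 3.58% were higher. Gfi1b had a log2 fold change of -0.04 on date 2 and 0.42 on date 1 in vehicle, a difference of -0.46 ± 0.19 that did not pass (unadjusted p = 0.0353 and adjusted p = 0.845 in edgeR). No member's age effect differed between the dates in either treatment at an adjusted p under 0.05.

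Partners and relatives of the members moved in both directions with age, in lists written from textbook knowledge. Of 13 MEIS, PBX and HOX partners, 5 were higher in old vehicle libraries and none was lower, with a median of 0.49. Among them were Pbx3 (1.44, adjusted p = 0.000662), whose product pairs with MEIS proteins, and Meis3 (1.46, adjusted p = 0.000767), a close relative of Meis1. In dmPGE2 libraries 4 of the 13 were higher and 1 was lower. Of 15 other ETS genes 1 was higher, Elk4 at 0.60, and 1 was lower, Spi1, the myeloid factor PU.1, at -0.61 (adjusted p = 0.0023). Of 9 tested LMO2 complex members and E proteins only Tcf3, an E protein, was called, and it was lower at -0.33. Gata3 was higher (0.65) as 1 of 3 in the GATA list, and Runx3 lower (-0.54) as 1 of 3 in the RUNX list. Prdm16, the closest relative of Mecom, was higher (0.45, adjusted p = 0.0159) while the corepressor Ctbp1 was lower (-0.23). Of 7 in the GFI1 and LSD1 list Hdac2 alone was called, lower at -0.27, and none of the 3 leucine zipper relatives of Hlf was called. Of 18 other stem cell factors 7 were higher and 2 lower, led by Ndn at 1.00, Nkx2-3 at 0.57 and Egr1 at 1.04.

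Other cell markers moved with age beside the members. Of the 10 stem cell markers, 9 were higher in old vehicle libraries with a median of 0.69, among them Procr and Slamf1. Their sum was 3628 to 4853 CPM in old and 2442 to 3859.8 CPM in young vehicle libraries. The 8 megakaryocyte genes summed to 1215 to 1746 CPM in old vehicle libraries and 565 to 677 CPM in young vehicle libraries. Of 7 tested 3 were higher and none lower. The difference in the sum was carried mainly by Vwf and Itgb3. Vwf had 425 to 767 CPM in old and 95.4 to 200 CPM in young vehicle libraries. Itgb3 had 310 to 483 CPM in old and 92.4 to 127 CPM in young ones. Pf4 overlapped between the ages, at 57.0 to 117 CPM in old and 75.3 to 124 CPM in young vehicle libraries. The endothelial genes, 7 of 8 in the table, summed to 76.3 to 101 CPM in old and 10.5 to 24.5 CPM in young vehicle libraries. The sum was carried by the 2 genes called, Cldn5, at 29.3 to 49.5 CPM in old and 1.07 to 3.81 CPM in young vehicle libraries, and Kdr, at 34.5 to 55.5 CPM in old and 5.57 to 13.8 CPM in young vehicle libraries. On date 1 the defining gene Cdh5 was at 0 in both old vehicle libraries and at 0 to 0.269 CPM in the young ones. On date 2 it had 0.453 to 1.38 CPM in old and 1.47 to 1.70 CPM in young vehicle libraries. Flt1 was at 0 in both old and both young vehicle libraries of date 1, and the other endothelial genes reached at most 7.96 CPM in any vehicle library. The part of these cells in the members' differences was not tested.

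The summed markers of 5 other blood cell types were lower in old than in young vehicle libraries on date 2. Those of mast cells and basophils overlapped there, at 523 to 3220 CPM in old and 1786 to 4344 CPM in young vehicle libraries. The B cell sums overlapped as well, at 52.3 to 81.9 CPM in old and 67.8 to 72.2 CPM in young vehicle libraries. The erythroid genes, 8 of 10 in the table, had Rhag and Ermap among those called lower with age in vehicle, the sums on date 2 being 333 to 476 CPM in old and 1368 to 1482 CPM in young vehicle libraries, while on date 1 they were 89.3 to 127 CPM in old and 85.8 to 86.2 CPM in young vehicle libraries. The 5 myeloid progenitor genes summed to 1389 to 1464 CPM in old and 2179 to 3209.5 CPM in young vehicle libraries on date 2. On date 1 the order was the other way, with 261 to 300.2 CPM in old and 125 to 158 CPM in young vehicle libraries. Over both dates Mpo, Ctsg and Elane of that list were lower in old mice and Prtn3 was higher. The 6 neutrophil genes summed to 679 to 734 CPM in old and 1173 to 1328 CPM in young vehicle libraries on date 2, with Ngp called lower. The 5 monocyte genes summed to 174 to 279.9 CPM in old and 369 to 464 CPM in young vehicle libraries on date 2, with Ly6c2 called lower. The 7 T and NK cell genes summed to 110.5 to 157 CPM in old and 239 to 250.1 CPM in young vehicle libraries on date 2, with Nkg7 called lower. The part of these cells in the date 2 values of the members, the age calls of Mecom, Lmo2 and Fli1 among them, was not tested. On date 1 the neutrophil genes summed to at most 3.74 CPM in old and 4.19 CPM in young vehicle libraries. The monocyte genes summed to at most 19.7 CPM in old and 18.6 CPM in young vehicle libraries of that date. The T and NK cell genes summed to 25.6 to 42.5 CPM in old and 57.0 to 80.5 CPM in young vehicle libraries of date 1. The part of these cells in the date 1 values was not tested either.

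**Figure D3:**
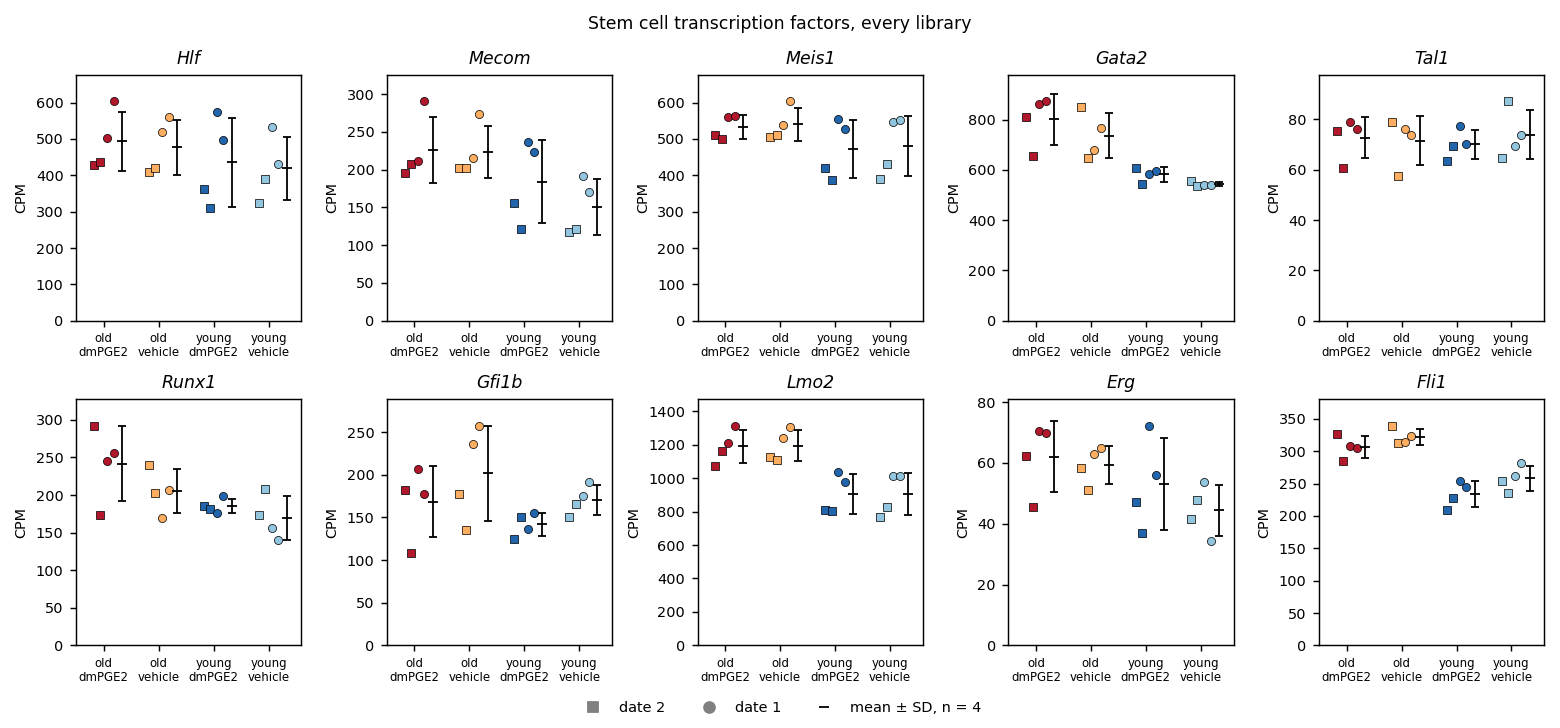
CPM of each member in every library, by group, with squares for date 2, circles for date 1 and the mean ± SD of 4 libraries beside the points. Old groups lie above young groups for Gata2, Lmo2 and Fli1. Date 2 lies below date 1 within the groups for Hlf, Mecom, Meis1 and Lmo2.

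Across all 8 mice none of the 10 members passed for dmPGE2 against vehicle, where 85 of 13942 genes did (0.610%). At an unadjusted p under 0.05 in edgeR 5 members and 1749 genes stood out, and DESeq2 called 1 member, Gfi1b. Gfi1b was lower with dmPGE2 in 7 of 8 mice, with a log2 fold change of -0.26 ± 0.06 (adjusted p = 0.0715). DESeq2 gave it an adjusted p of 0.00268, the fit with date terms 0.0328, and the fit without mouse 485 0.019. With any other mouse left out it did not pass. Fli1 was lower with dmPGE2 in 8 of 8 mice, as were 1.40% of the genes tested, by a small amount (-0.10 ± 0.04, adjusted p = 0.302). Gata2 was higher in 7 of 8 mice (0.11 ± 0.04, adjusted p = 0.297), and Mecom (0.15 ± 0.05, adjusted p = 0.232) and Runx1 (0.19 ± 0.08, adjusted p = 0.368) had positive values as well. The share of all genes with 1 direction in 7 of 8 mice was not counted. Lmo2 (0.00 ± 0.03), Meis1 (-0.02 ± 0.04) and Tal1 (-0.02 ± 0.06) lay at 0 within their errors, Hlf gave 0.05 ± 0.05 and Erg 0.15 ± 0.10.

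Within old mice none of the members passed, nor did any other gene (0%), though 1 member, Gfi1b, and 1096 genes had an unadjusted p under 0.05 in edgeR, and DESeq2 called 0 members and 114 genes. Within young mice the count was also 0 of 10 and 0% of all genes, with 3 members and 1785 genes at an unadjusted p under 0.05 in edgeR and 269 genes called by DESeq2. In young mice Mecom had a log2 fold change of 0.28 ± 0.07 (adjusted p = 0.186), which DESeq2 called (adjusted p = 0.0294), and in old mice 0.02 ± 0.07. The difference, old minus young, was -0.26 ± 0.10 (unadjusted p = 0.023 and adjusted p = 0.696 in edgeR). No gene passed for that difference (0%), with 955 genes and 1 member at an unadjusted p under 0.05 in edgeR and 0 members and 14 genes called by DESeq2. Gfi1b had -0.25 ± 0.08 in old mice and -0.27 ± 0.08 in young mice, a difference of 0.02 ± 0.12.

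Taken by date, the response of the members was called on date 1 alone. On date 2 no member passed, beside 54 of 13942 genes (0.387%), with 0 members and 1203 genes at an unadjusted p under 0.05 in edgeR and 0 members called by DESeq2. On date 1 Gata2 and Runx1 were higher with dmPGE2 and Gfi1b was lower, each in 4 of 4 mice, where 2.93% of genes were called, 2.42% being higher and 0.502% lower. Erg was also higher and Fli1 lower in 4 of 4 mice without being called, and Fli1 was lower in 4 of 4 mice on date 2 too. The share of all genes with 1 direction in 4 of 4 mice was not counted. The difference of the responses, date 2 minus date 1, was called for 151 genes (1.08%) but for no member, with 3 members and 1348 genes at an unadjusted p under 0.05 in edgeR and 0 members called by DESeq2, so the response of the members is not shown to differ between the dates.

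**Figure D4:**
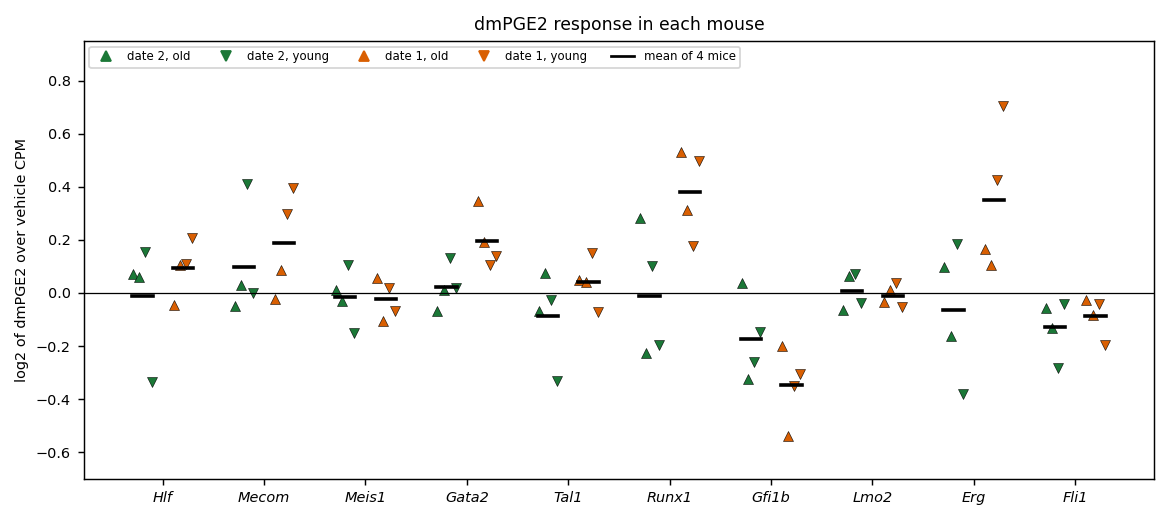
Log2 ratio of dmPGE2 over vehicle CPM in each mouse, date 2 left of date 1, with triangles pointing up for old and down for young mice and a line at the mean of 4 mice. On date 1 all 4 mice are above 0 for Gata2, Runx1 and Erg and below 0 for Gfi1b and Fli1. On date 2 the points of Gata2, Runx1, Erg and Gfi1b lie on both sides of 0, while those of Fli1 are again all below 0.

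Runx1, partner of CBFB on DNA, had 292 and 174 CPM with dmPGE2 in the old mice of date 2, against 241 and 203 CPM with vehicle. In the young mice of date 2 it had 186 and 182 CPM with dmPGE2, against 173 and 208 CPM with vehicle. One mouse of each age was higher and the other lower. On date 1 it had 245 and 257 CPM with dmPGE2 in old mice, against 169 and 206 CPM with vehicle. In the young mice of date 1 it had 177 and 198 CPM with dmPGE2, against 156 and 141 CPM with vehicle, so all 4 mice were higher. The log2 fold change was -0.01 ± 0.09 on date 2 (adjusted p = 0.993) and 0.39 ± 0.09 on date 1 (adjusted p = 0.0486), a difference of -0.39 ± 0.13 (unadjusted p = 0.0112, adjusted p = 0.316 in edgeR). Erg had a like difference of -0.42 ± 0.16 (adjusted p = 0.415), with -0.06 ± 0.11 on date 2 and 0.36 ± 0.11 on date 1 (adjusted p = 0.156).

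Gfi1b had 182 and 108 CPM with dmPGE2 in the old mice of date 2, against 178 and 136 CPM with vehicle. In the young mice of date 2 it had 125 and 150.0 CPM with dmPGE2, against 150.0 and 166 CPM with vehicle. Mouse 485 was the single mouse that was not lower. On date 1 it had 206 and 177 CPM with dmPGE2 in old mice, against 237 and 257 CPM with vehicle. In the young mice of date 1 it had 137 and 155 CPM with dmPGE2, against 175 and 191 CPM with vehicle. All 4 were lower, with a log2 fold change of -0.17 ± 0.08 on date 2 (adjusted p = 0.585) and -0.34 ± 0.08 on date 1 (adjusted p = 0.0402). The difference was 0.17 ± 0.11 (adjusted p = 0.695).

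Gata2 gave log2 ratios of dmPGE2 over vehicle of -0.07, 0.01, 0.13 and 0.02 in the mice of date 2 and 0.34, 0.19, 0.10 and 0.14 in those of date 1, the old mice before the young. The fitted log2 fold change was 0.03 ± 0.05 on date 2 (adjusted p = 0.929) and 0.20 ± 0.05 on date 1 (adjusted p = 0.0417), a 1.15-fold difference. The difference between dates was -0.18 ± 0.07 (adjusted p = 0.407). All 3 date 1 calls lay close to the threshold. None of the 3 passed when mouse 477, 478, 479 or 480 was left out, with adjusted p of 0.0603, 0.459, 0.388 and 0.145 for Runx1, 0.14, 0.206, 0.0598 and 0.449 for Gfi1b, and 0.1, 0.25, 0.461 and 0.144 for Gata2. Leaving out a date 2 mouse also ended the calls of Gata2 (adjusted p = 0.0636 without 485 and 0.0569 without 486) and Runx1 (adjusted p = 0.0532 without 484). Without the mouse block none passed, and Gata2 also missed with no filter on low counts (adjusted p = 0.0559) and Runx1 with the other size factors (adjusted p = 0.055). The direction was unchanged in each of these fits.

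Among partners and relatives on date 1, 3 of 15 other ETS genes were higher with dmPGE2 and none lower: Etv3 (0.85, adjusted p = 0.0036), Etv6 (0.30, adjusted p = 0.0141), a repressor needed by adult stem cells, and Elk4 (0.71, adjusted p = 0.0185). Hoxa5 was the single one called of 13 MEIS, PBX and HOX partners (1.21). None of the 9 tested LMO2 complex members, 3 GATA, 3 RUNX, 3 leucine zipper, 3 PRDM16 and 7 GFI1 list genes was called on that date. Of 18 other stem cell factors 3 were higher and 2 lower, led by the early response gene Egr1 (1.90), Mycn (-1.22) and Nkx2-3 (1.16). These 3 also passed on date 2, at 0.52 for Egr1, -0.48 for Mycn and 0.39 for Nkx2-3, and the difference between dates was called for each (highest adjusted p = 0.00186). Of the cell markers tested none was called with dmPGE2 on either date, and over all mice 1 of 6 mast cell and basophil genes was.

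The members also differed between the dates. In vehicle libraries 5 of 10, Hlf, Mecom, Meis1, Lmo2 and Gfi1b, were lower on date 2 than on date 1 and none was higher, where 11.0% of genes were called and 3.01% were lower. In the dmPGE2 libraries of the same mice, a comparison chosen after seeing the data, 5 were lower and none was higher, where 11.7% of genes were called and 4.05% were lower. They were Hlf, Mecom, Meis1, Lmo2 and Erg.

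Hlf, a factor largely confined to stem cells within the blood system, had 409 and 419 CPM on date 2 in old vehicle libraries, against 518 and 562 CPM on date 1. In young vehicle libraries it had 324 and 391 CPM on date 2, against 532 and 430.2 CPM on date 1. All date 2 libraries were below all date 1 libraries, with a log2 fold change of -0.41 ± 0.08 (adjusted p = 0.0083). Meis1 had 506 and 510.4 CPM on date 2 in old vehicle libraries, against 539.8 and 605 CPM on date 1. In young vehicle libraries it had 391 and 431 CPM on date 2, against 548 and 552 CPM on date 1. Its dates did not overlap either, with a log2 fold change of -0.30 ± 0.07 (adjusted p = 0.0179). The share of all genes whose dates did not overlap was not counted. Without mouse 477, 480 or 483 the adjusted p of Meis1 was 0.055, 0.0604 and 0.0589.

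Mecom (-0.44 ± 0.10, adjusted p = 0.0143), Lmo2 (-0.27 ± 0.05, adjusted p = 0.00946) and Gfi1b (-0.44 ± 0.11, adjusted p = 0.0311) were lower on date 2 in vehicle with ranges that overlapped across ages. Mecom missed the threshold without mouse 480 (adjusted p = 0.0592) or mouse 483 (adjusted p = 0.0516). The call of Gfi1b was lost when any of mice 478, 479, 480, 483, 485 or 486 was left out (adjusted p between 0.0522 and 0.0956), and in dmPGE2 libraries its value of -0.26 did not pass (adjusted p = 0.303). Runx1 was the single member with a sizeable positive value in vehicle (0.30 ± 0.09, adjusted p = 0.0723). It was called by DESeq2 (adjusted p = 0.0357) and without mouse 480 (adjusted p = 0.0494), but not with any other mouse left out. In dmPGE2 libraries it gave -0.08 ± 0.13. Gata2 (0.03 ± 0.08), Tal1 (-0.03 ± 0.13), Fli1 (-0.06 ± 0.07) and Erg (-0.11 ± 0.15) did not pass in vehicle, while Erg passed in dmPGE2 libraries (-0.51 ± 0.14, adjusted p = 0.0375). Of the 10 stem cell markers 9 were lower on date 2 in vehicle and none was higher, with a median of -0.47. The 6 neutrophil, 5 monocyte and 6 tested mast cell and basophil genes were all higher, and the part of these other cells in the members' values was not tested.

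Partners on the dates were mixed as well. Of 15 other ETS genes 3 were higher on date 2, Spib (7.14), Spi1 (0.44) and Ets1 (0.78), factors of myeloid and lymphoid cells, and none was lower. Of 9 tested LMO2 complex members and E proteins 2 were lower, Ldb1 (-0.33), the dimerising partner of LMO2, and Ssbp2 (-0.29), which stabilises LDB1. Of 18 other stem cell factors 3 were higher and 4 lower, and of 3 leucine zipper relatives of Hlf, Nfil3 was higher (1.70).

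**Figure D5:**
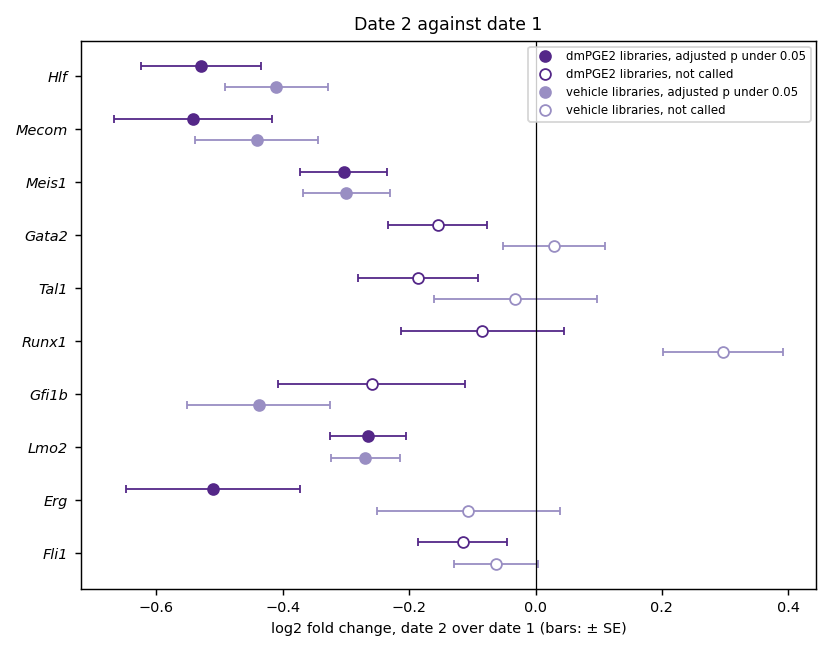
Log2 fold change of date 2 over date 1, with its standard error, for each member in dmPGE2 and vehicle libraries. Filled points passed the adjusted p threshold. Hlf, Mecom, Meis1 and Lmo2 are below 0 and called in both, Gfi1b in vehicle and Erg in dmPGE2.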

How the data were processed

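The authors deposited a table of raw read counts per gene, with no normalization, for 14829 genes and 16 libraries. The submitters' processing notes list mm10, Subread 1.5.1, STAR 2.5.2b and featureCounts, without their roles. The sources used here give neither the strand setting nor the annotation.

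Counts were tested with edgeR 4.0.16 in R 4.3.3 (quasi-likelihood, robust, TMM, filterByExpr), with calls at a Benjamini-Hochberg adjusted p under 0.05 over all genes tested. dmPGE2 was tested with mouse as a block, with terms by age, or by age and date. Age was tested with a date term and the dates with an age term. Standard errors are log2 fold changes divided by √F. The pairing comes from the labels, and libraries of a mouse correlated at 0.481 to 0.734 after removal of group means (12977 genes). The group means span both dates, so this correlation also holds the date difference and does not test the pairing. Alternatives were DESeq2 1.42.0, RLE factors, no filter, no block, other covariates, single dates and each mouse left out. The scripts were tested on simulated data.

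CPM used TMM factors, and RPKM divided CPM by the deposited exon length. Members, lists and alternatives were chosen with earlier results of these data known. All members are given, and up to 3 called genes per list by smallest p, of which some are not reported here. Markers served as a check. SDs are over mice.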

Additional observations from a re-analysis of the deposited data

Results flagged for a closer look

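Mecom in the old dmPGE2 libraries had 1 value far from the others. Mouse 480 stood at 291 CPM, while the other 3 libraries lay between 195 and 211 CPM, a gap of 0.834 of the whole range. The vehicle library of the same mouse was also the highest of its group, at 274 CPM. Each of the 10 members was examined in 4 groups, 40 in all, and chance alone flags about 1 in 20.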

How the results depend on the processing

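Of 1260 recomputed log2 fold changes of members, 1197 kept their side of the threshold, 47 lost the call, 16 gained it and 0 called values reversed. Most of the 1260 belong to values not called in the main fits, while the 47 can come from called values alone. The main fits called 3 of 10 members with dmPGE2 on date 1 and 5 between the dates. With age they called 4 in vehicle and 3 in dmPGE2, and they called 0 in every other comparison. Among the 1197, 70 values that were not called changed sign. Members called moved from 0 to 1 for dmPGE2 in all mice with DESeq2 or with date terms (1 each) and in young mice with DESeq2 (1), and from 3 to 0 on date 1 with no replicate block. Among old against young mice they were 2 without a date term and 1 on date 1 alone in vehicle, in place of 4, and 1 on date 1 alone in dmPGE2, in place of 3. On the dates they were 0 without an age term, in place of 5. With each mouse left out in turn the members called were 0 to 1 (all mice), 0 to 3 (date 1), 3 to 5 (old against young, dmPGE2) and 2 to 5 (dates); the cause was not tested.

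Counts of all genes moved more. For dmPGE2 in all mice the 85 became 447 with DESeq2, 347 with date terms and 39 with no replicate block, and 0 to 166 with a mouse left out. DESeq2 gave 114 in old mice, 269 in young mice and 14 for their difference, where edgeR gave 0 of each and 0 to 4 and 0 to 2 for the last 2 with a mouse left out. On date 2 the 54 became 131 with DESeq2 and 10 with no replicate block, and the 151 of the date difference became 241 with DESeq2. With a mouse left out the counts were 236 to 446 on date 1, 100 to 160 for the date difference, 1448 to 2129 and 1104 to 2167 for old against young in vehicle and in dmPGE2, and 902 to 1346 for the dates. Old against young fell to 971 in vehicle and 804 in dmPGE2 without a date term, 865 and 774 on date 1 alone, and 1057 and 1097 on date 2 alone, and the date count to 559 without an age term. The pairing rests on the labels, and leaving out the block changed no other member call.

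The age calls of Lmo2, Gata2 and Fli1 in both treatments, and of Mecom in vehicle, held with each mouse left out. Without a date term Lmo2 lost its call in vehicle (adjusted p = 0.0581) and in dmPGE2 (0.0739, leaving 2 members), and Mecom in vehicle (0.0874). The lowest count of a member in a library was 554. With 2 mice per age and date, values within a date rest on few animals, and the date, its other cell markers and any step done on it cannot be told apart.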
